A study of Mus musculus with 10 samples.

Results

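The CELF family (CUGBP Elav-like family) of RNA-binding proteins is encoded in the mouse by Celf1 to Celf6, of which 5 were listed in at least 1 sperm library and all 6 in at least 1 testes library. The members were taken by gene symbol among the transcripts with a RefSeq mRNA identifier (NM_), which gave 11 transcripts of 6 genes out of 18966 NM_ transcripts of 16063 genes. The paper behind these data names 1 of them, Celf3, of which it amplified partial but not full-length products from sperm. It lists qPCR primers for Celf3 under NM_001289613, and picked its qPCR targets among RNAs upregulated in its sequencing. For the RNAs picked, it reports that qPCR in sperm and testes went the same way. The control Celf3 values below are thus not independent of that choice. The libraries were strand-specific RNA-seq of C57BL/6 mice (C57BL/6J in the study's methods) aged 3 to 5 months, with 50 mice injected in each arm. One arm got a single intraperitoneal dose of 3 mg CdCl2 per kg body weight and the other got saline, and tissue was taken 35 days later. These details are from the sample labels. The study's methods give a different number and age range of mice and describe no injection, a difference that is not resolved here. Control sperm came as 4 samples, and cadmium sperm, control testes and cadmium testes as 2 samples each. The sperm samples were pools of mice, testes were taken as whole tissue with all its germ and somatic cells, and no group carried a genetic change. The study's methods describe the control sperm pools as separate groups of mice and the control testes as taken from those same mice, so that sperm and testes samples share animals, which the fits below do not model. Which mice went into which testes sample is not stated, and p-values measure only the spread between these samples.

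CELF proteins bind GU-rich stretches of RNA through their RNA recognition motifs. In the nucleus they decide whether alternative exons are kept or skipped, often against the muscleblind (Mbnl) proteins, and in the cytoplasm they control the decay and translation of mRNAs, for which CELF1 works with the poly(A) nuclease encoded by Parn. Celf1 and Celf2 are active in many tissues and Celf1 is needed for normal sperm production in mice, whereas Celf3, Celf4, Celf5 and Celf6 are known mainly from the nervous system.

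Depth set what could be seen of these genes. The summed expected counts, which are estimates of reads per transcript, ran from 366455 to 1058017 per library in the 4 control sperm pools and from 1155491 to 1254477 with cadmium. Testes libraries were deeper, at 2606086 and 2866856 in control mice and up to 2845417 with cadmium. Between 9.14 and 13.6% of the counts lay in NM_ transcripts. Of the 110 combinations of a CELF transcript and a sample, 42 were above 0, and 27 of these 42 rested on fewer than 10 counts. Control sperm 3, the shallowest library, listed no CELF transcript. A count of 0 there allows up to 8.19 CPM (expected counts scaled to the library total) at 3 counts, or 1.47 FPKM (counts scaled to transcript length and to the library) of the Celf5 transcript. Such floors and all counting intervals cover counting error only. Control sperm 1 was left out of the edgeR fits, as it was by the study, and is given among the values. The protamine and transition protein mRNAs that mark late spermatids did not all go one way. Prm2 ranged from 184 to 438 FPKM in 6 sperm libraries and from 147 to 281 FPKM in 4 testes libraries, which overlapped. Prm1 ranged from 0 to 40.1 FPKM in sperm and from 118 to 136 FPKM in testes, Tnp1 from 0 to 6.21 and from 88.1 to 140 FPKM, and Tnp2 from 0 to 33.3 and from 65.9 to 121 FPKM.

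Celf5 was the CELF gene with the highest level in testes. Its only listed transcript, NM_001311126 (5564 bases, gene on chromosome 10 from 81459227 to 81482730 in GRCm38.p6), stood at 13.1 and 16.6 FPKM in control testes 1 and 2, and at 15.2 and 17.4 FPKM in cadmium testes 1 and 2. It was at 7.12, 5.57, 0 and 4.05 FPKM in control sperm 1 to 4, and at 6.25 and 3.70 FPKM in cadmium sperm 1 and 2. The 6 sperm values lay below the 4 testes values without overlap, as they did for 23.5% of 33082 genes that reached 1 FPKM in 2 samples or more. No CELF gene had all 6 sperm values above all 4 testes values, as 3.77% of those genes did. In CPM the order was the same, with 72.8 to 96.6 in testes and 0 to 39.4 in sperm. The 95% Poisson interval of control sperm 1, the highest sperm value, ran from 22.9 to 63.4 CPM, and that of control testes 1, the lowest testes value, from 63.3 to 83.4. In testes Celf5 stood within the top 3.42 to 4.29% of the NM_ genes listed in each library, and in the 5 sperm libraries that listed it within the top 14.5 to 46.0%.

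**Figure D1:**
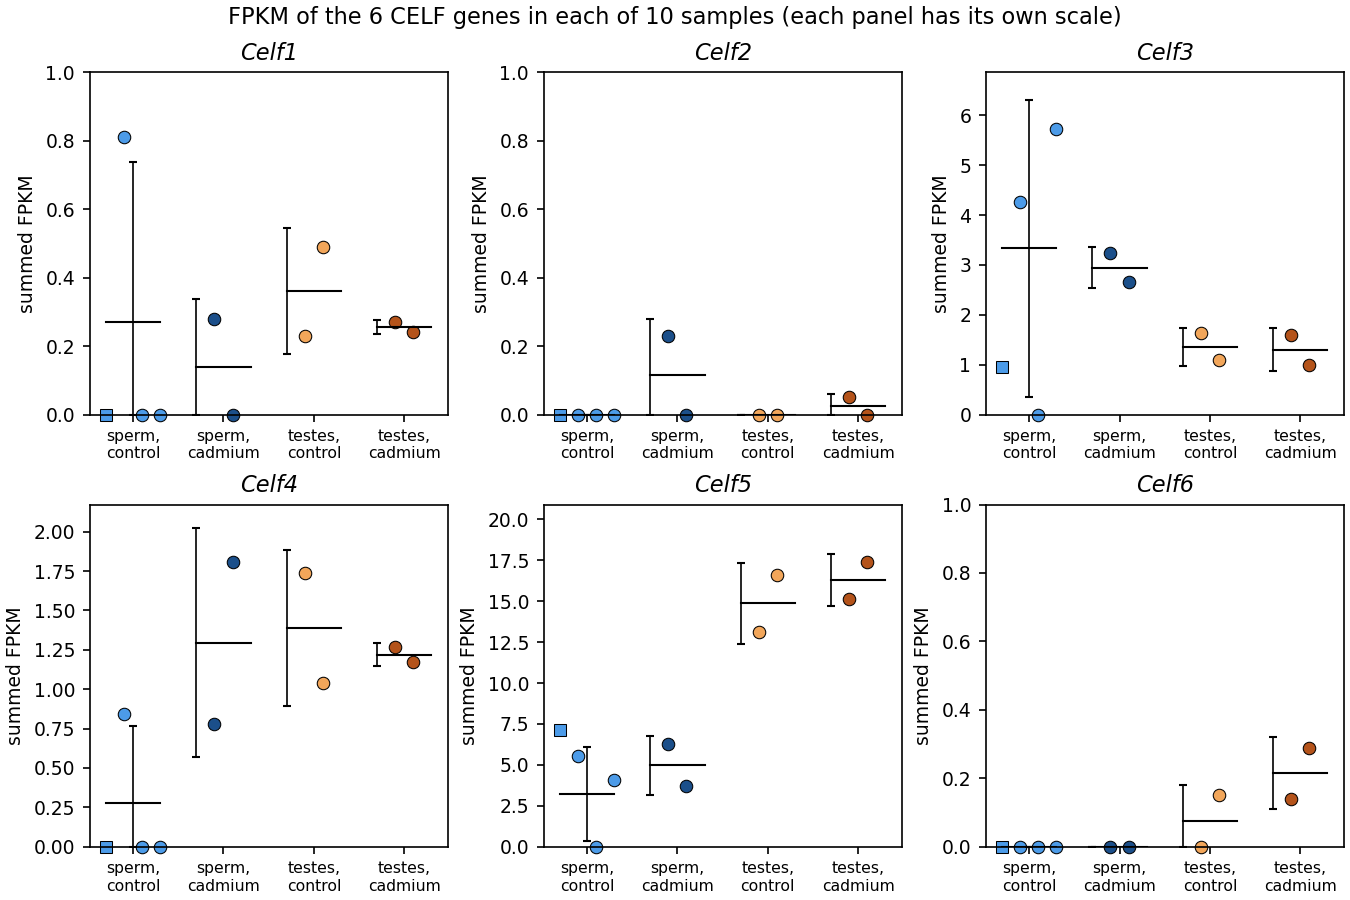
Summed FPKM (y axis) of each CELF gene in the 10 samples (points) by group (x axis), with the group mean (line) and 1 SD (bar, ended at 0). Control sperm 1 is the square and is not in the mean. The Celf5 testes points, at 13.1 to 17.4 FPKM, all lie above the sperm points, at 0 to 7.12 FPKM.

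Celf3, which encodes a family member known from neurons, was the only CELF gene whose level in some sperm libraries exceeded every testes library by more than 1 FPKM. That margin was not planned, and the share of all genes that pass it was not computed. Celf1 (0.81 FPKM in control sperm 2), Celf2 (0.23 FPKM in cadmium sperm 1) and Celf4 (1.81 FPKM in cadmium sperm 2) also exceeded every testes library, by less. The summed level of Celf3 was 0.95, 4.27, 0 and 5.72 FPKM in control sperm 1 to 4 and 3.24 and 2.65 FPKM in cadmium sperm 1 and 2. The control testes libraries held 1.63 and 1.09 FPKM of it, and those of cadmium testes 1.60 and 0.99 FPKM. Control sperm 2 and 4 and cadmium sperm 1 and 2 were above the 4 testes libraries, and control sperm 1 and 3 were below them. Those 2 libraries were the shallowest of the 10, and their 95% Poisson intervals, up to 13.1 and 10.1 CPM, took in every testes value (2.63 to 4.88 CPM). The whole Celf3 signal of the series was 85.8 expected counts, with 6.85 to 14.0 counts in each testes library and at most 14.0 in any sperm library.

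**Figure D2:**
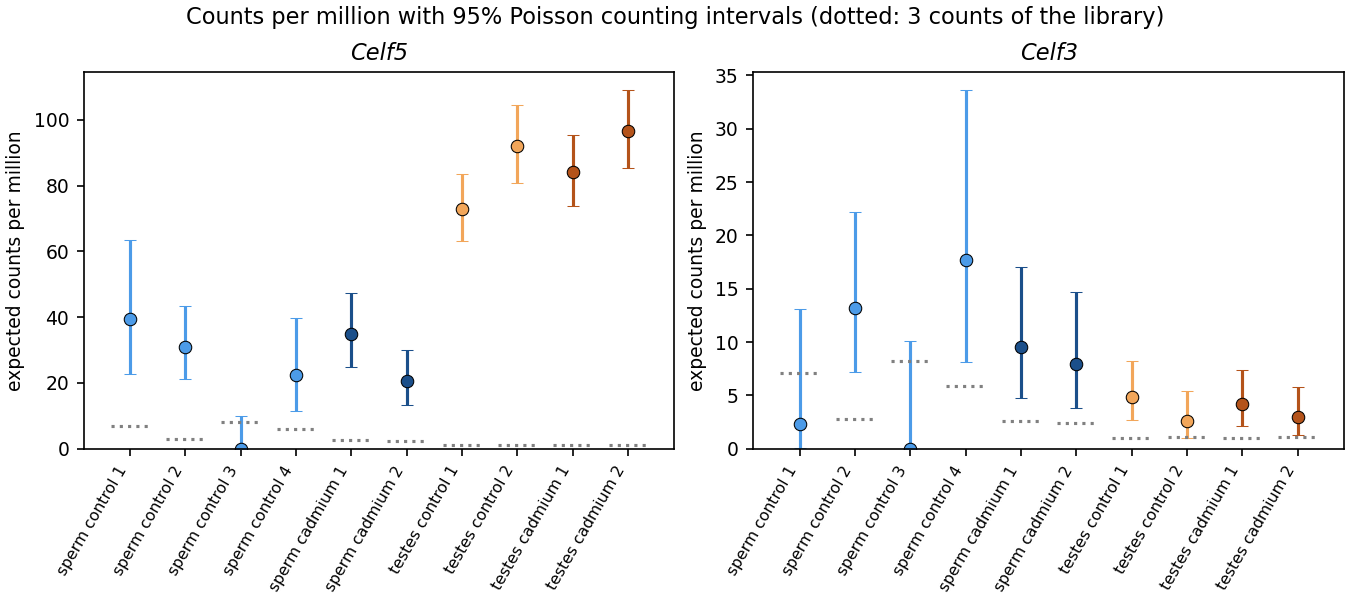
Expected counts scaled to the library total (CPM, y axis) of Celf5 and Celf3 in each library (x axis), with 95% Poisson intervals as bars and the level of 3 counts as dotted lines. Celf5 runs from 72.8 to 96.6 in testes and up to 39.4 in sperm, while the Celf3 interval of control sperm 4 (8.10 to 33.6) lies above those of 3 testes libraries and those of the other sperm libraries overlap with some or all of the testes intervals.

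The transcripts to which the Celf3 counts were assigned differed between libraries. RefSeq holds 16 NM_ transcripts of Celf3 (chromosome 3, 94478285 to 94496786, GRCm38.p6), and 4 of them were listed. NM_001289613 (3118 bases) took all counts of control sperm 2 and 4, with 14.0 and 9 counts, and was listed in no other library. NM_172434 (3031 bases) took all counts of control testes 1 (14.0), cadmium sperm 2 (10.0) and cadmium testes 2 (8), and 88.5% of those of cadmium sperm 1. NM_001289620 (2459 bases) took all counts of control testes 2 (6.85) and 56.1% of those of cadmium testes 1. NM_001289616 (2516 bases) held the 1 count of control sperm 1. In 7 of the 9 libraries with Celf3 a single transcript thus took every count, and the 2 control testes libraries, of the same group, named different transcripts. The same was seen for Celf1, where NM_198683 or NM_001244903 took all counts of a library in each of 6 libraries.

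**Figure D3:**
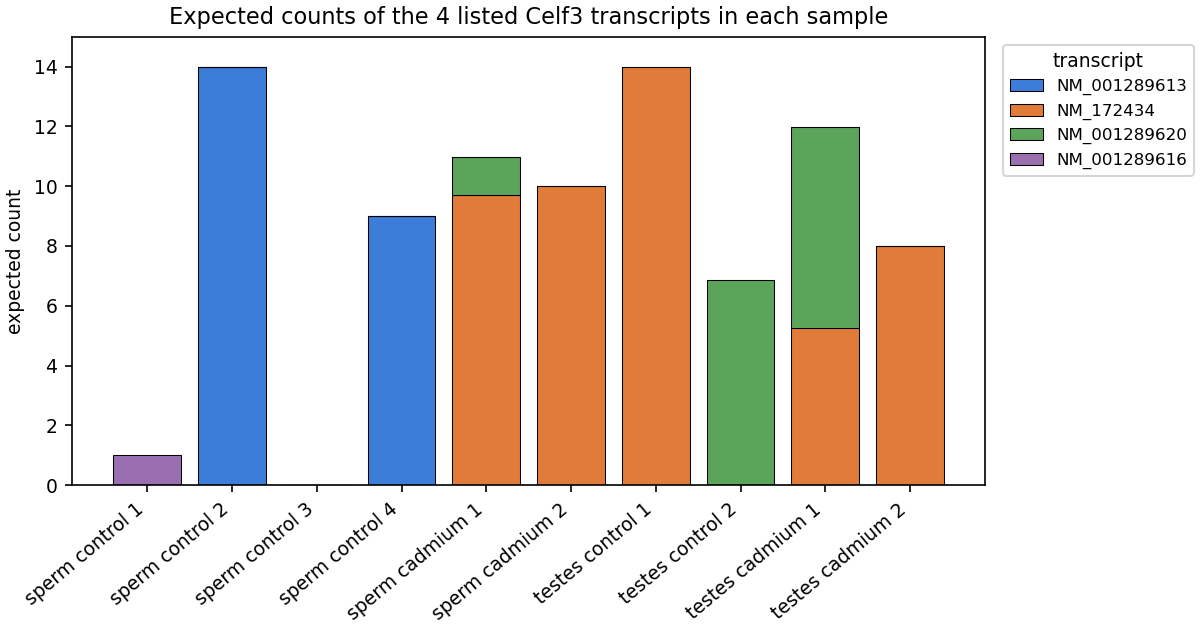
Expected counts (y axis) of the 4 listed Celf3 transcripts, stacked, in each library (x axis). NM_001289613 fills the bars of control sperm 2 and 4 (14.0 and 9 counts), and NM_172434 and NM_001289620 fill those of testes and cadmium sperm.

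Windows upstream of transcript starts were read from RefSeq (GRCm38.p6) for 20 starts of 5 CELF genes, and searched on both strands for the cyclic AMP response element TGACGTCA and for the X-box palindrome GTTNCCATGGNAAC with its shorter part CCATGGNAAC. These motifs were chosen after the windows had been read, because Celf3 and Celf5, the family members with the most signal, each hold one. That these genes hold them was thus fixed by the choice and does not bear on their levels. In Celf3, the 3 starts that lie closest to each other had both the response element and the shorter part in the 250 bases before them, and the other 4 Celf3 starts had neither. The windows of these 3 starts overlap and hold the same match of each motif. The window of the first of these 3 starts, at chr3:94484077-94484326 on the plus strand, reads as follows with both matches in capitals.
Celf3: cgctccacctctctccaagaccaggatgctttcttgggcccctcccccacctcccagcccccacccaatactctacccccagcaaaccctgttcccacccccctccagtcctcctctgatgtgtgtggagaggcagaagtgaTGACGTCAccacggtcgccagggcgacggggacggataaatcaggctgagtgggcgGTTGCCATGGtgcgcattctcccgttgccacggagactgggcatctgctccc
The response element ended 100 bases and the shorter X-box part 42 bases before the start. In Celf5, 1 of 5 windows held the whole palindrome, shown here in capitals with its flanks from chr10:81473032-81473061 on the minus strand, 176 bases before the start, and a second, shorter match lay at chr10:81473080-81473109.
Celf5 palindrome: gaatcagcGTTGCCATGGCAACcccatctt
Celf5 shorter match: cacagaggcgGTTTCCATGGtagcaacaac
Celf6, which was all but unlisted here, held the same 2 kinds of match before its 2 starts, at chr9:59578094-59578123 and chr9:59589167-59589196 on the plus strand.
Celf6 response element: tgctagctgtcTGACGTCActaagctcggg
Celf6 shorter match: ctgccagggtGTTACCATGGttactgggta
Of all 32851 such windows, 1.55% held the response element, 0.110% the palindrome and 0.980% its shorter part, which lies within the palindrome. No match was found before the Celf1 or Celf2 starts. Windows of Celf4 were not searched, and the starts were not matched to the transcripts listed here. The matches are letters in a window and say nothing of whether a factor binds there.

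Celf4, another family member of the nervous system, was low in both tissues. Its summed level was 0.84 FPKM in control sperm 2 and 0 in the other 3 control sperm libraries, and 0.78 and 1.81 FPKM in cadmium sperm. The control testes libraries held 1.74 and 1.04 FPKM, those with cadmium 1.27 and 1.17 FPKM, so that the tissues overlapped. NM_001174074 (3863 bases) held 63.7 of the 68.0 Celf4 counts of the series and NM_001146295 the rest.

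Celf1, the broadly active member that works in mRNA decay, had 26.6 counts in the whole series. It stood between 0.23 and 0.49 FPKM in the 4 testes libraries, and in sperm it was listed in control sperm 2 (0.81 FPKM, 4 counts) and cadmium sperm 1 (0.28 FPKM) alone. Celf2, its closest relative, was listed in cadmium sperm 1 (0.23 FPKM) and cadmium testes 1 (0.05 FPKM), with 3 counts in all. Celf6 was listed in 3 testes libraries, at 0.15, 0.14 and 0.29 FPKM, with 4 counts in all, and in no sperm library. These 3 genes passed the filter, which asked for 1 FPKM in a pair of samples or more, in no comparison.

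By mean FPKM, the order in control testes was Celf5 (14.9 ± 2.46, SD, n = 2), Celf4 (1.39 ± 0.495), Celf3 (1.36 ± 0.382), Celf1 (0.36 ± 0.184), Celf6 (0.075 ± 0.106) and Celf2 (0). Celf5 and Celf4 were apart in both testes samples, while Celf4 and Celf3 overlapped. In control sperm Celf3 (3.33 ± 2.97, n = 3) and Celf5 (3.21 ± 2.88) came first and did not differ beyond their spread, followed by Celf4 (0.28 ± 0.485) and Celf1 (0.27 ± 0.468). In cadmium sperm Celf5 (3.70 and 6.25 FPKM) stood above Celf3 (2.65 and 3.24 FPKM) and Celf3 above Celf4, with no overlap between neighbours.

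The summed level of the family, most of which was Celf5 in testes, did not overlap between the tissues. Single genes lay lower in sperm without overlap in 23.5% of 33082 cases, and among the CELF genes this held for Celf5 alone. The 6 genes together summed to 16.7 to 20.1 FPKM in the 4 testes libraries and to 0 to 11.5 FPKM in the 6 sperm libraries. In control samples the mean sum of the 3 sperm libraries was 7.09 ± 6.20 FPKM (SD) and that of the 2 testes libraries 18.1 ± 1.87 FPKM, a log2 ratio of -1.35. In cadmium samples it was 9.47 ± 1.85 FPKM (n = 2) against 19.3 ± 1.15 FPKM (n = 2), a log2 ratio of -1.03. Celf3 made up 9.74 and 5.62% of the sum in the control testes libraries and 8.66 and 4.92% in those with cadmium. In control sperm 1, 2 and 4 it made up 11.8, 37.2 and 58.5%, and in cadmium sperm 1 and 2 it made up 30.1 and 32.5%. The shares of these 5 sperm libraries, control sperm 3 having none, were thus above every testes share in FPKM, in control sperm 1 by 1 count. In expected counts control sperm 1, at 5.63%, lay below control testes 1, at 5.69%. The share of Celf5 overlapped, at 41.5 to 88.2% in sperm and 78.5 to 86.6% in testes. Each share also depends on the levels of the other genes in the sum. Without control sperm 1, the Celf3 share in control sperm 2 and 4 was 47.9 ± 15.1% (SD, n = 2) against 7.68 ± 2.91% (n = 2) in control testes. In expected counts rather than FPKM, the Celf3 share was higher in sperm by 30.8 percentage points in place of 40.2. Permutations of these samples cannot give an exact two-sided p below 0.2 for 3 against 2 samples or 0.333 for 2 against 2, so no p is given.

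**Figure D4:**
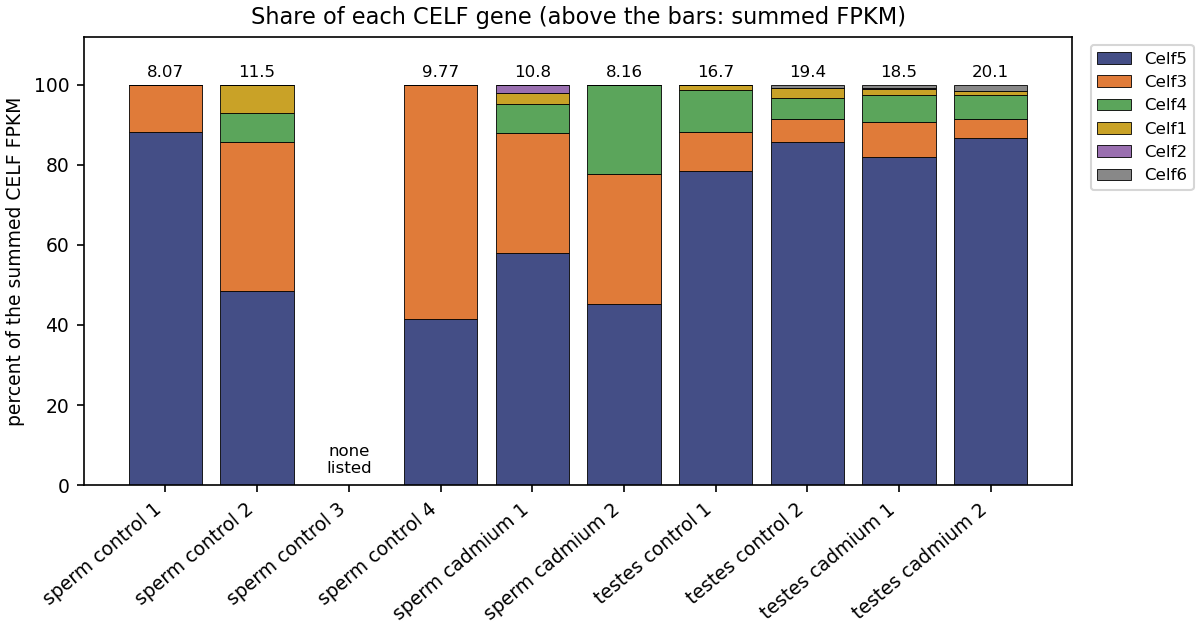
Share of each CELF gene in the summed CELF FPKM (y axis, percent) of each library (x axis), with the sum in FPKM above each bar. Celf5 makes up 78.5 to 86.6% in testes and Celf3 30.1 to 58.5% in 4 of the sperm libraries.

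The fits across genes of all transcript classes gave the tests of these differences, and the control comparison called 1211 of 4910 NM_ genes. In control sperm against control testes, 22% of 24430 genes were called at an adjusted p under 0.05 and a change over 2-fold, and none of the 3 CELF genes that passed the filter was among them by edgeR, DESeq2 or limma, while 1 of the 3 had an unadjusted p under 0.05 by edgeR. The log2 fold change of Celf5 was -2.28 (SE 0.92, 95% interval -4.11 to -0.46, adjusted p = 0.0614 by the quasi-likelihood test of edgeR after Benjamini and Hochberg), beside a median of -1.24 over all genes tested. The log2 fold changes of Celf3 and Celf4 were 1.38 (-1.67 to 4.43, adjusted p = 0.544 by edgeR) and -1.94 (-4.94 to 1.05, adjusted p = 0.364 by edgeR). Among transcripts, where 24% of 25822 were called, Celf3 NM_001289613 was called higher in sperm (log2 fold change 6.87, adjusted p = 0.0375 by edgeR). That value rests on 2 sperm libraries against testes libraries at 0 for this transcript, in which other Celf3 transcripts took the counts, and depends on the prior count, so it is no measure of Celf3 as a gene.

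In cadmium sperm against cadmium testes, where 31.7% of 25779 genes were called, Celf5 was called lower in sperm, with a log2 fold change of -1.53 (SE 0.55, 95% interval -2.61 to -0.44, adjusted p = 0.0229 by edgeR). Celf3 had a value of 1.52 (-0.05 to 3.10, adjusted p = 0.134 by edgeR) and Celf4 one of 0.29 (-1.42 to 2.01, adjusted p = 0.840 by edgeR). The median over all genes tested was -0.29, and 2018 of 5080 NM_ genes were called. The Celf5 call was lost when any 1 of the 4 libraries was left out (log2 fold change -1.25 without cadmium sperm 2 to -1.95 without cadmium testes 1, adjusted p 0.0594 to 0.181 by edgeR).

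Sperm and testes were also compared over control and cadmium samples together with the agent as a term, a fit chosen after the data had been seen. Celf5 was lower in sperm by 1.81 on the log2 scale (SE 0.54, 95% interval -2.87 to -0.76, adjusted p = 0.00469 by edgeR), in a fit that called 32.7% of 32810 genes. Among NM_ genes it called 2653 of 6606. The fit uses the same set of libraries as the 2 comparisons before it, and is no further evidence. The call was kept when each of the 9 libraries was left out in turn, with a log2 fold change between -1.46 without control sperm 3 and -2.38 without control sperm 2. Celf3 had a log2 fold change of 1.57 (0.05 to 3.10, adjusted p = 0.103 by edgeR), and was called without control sperm 3, the library that lists no CELF transcript (1.90, adjusted p = 0.010 by edgeR). Celf4 stood at -0.63 (-2.33 to 1.07, adjusted p = 0.591 by edgeR), near the median of -0.73 over all genes. In such bulk samples fewer cells of a type and less RNA per cell cannot be told apart.

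Cadmium moved no CELF gene past the threshold by edgeR, DESeq2 or limma, and none had an unadjusted p under 0.05 by edgeR. In testes, where 0.015% of 26721 genes were called, the log2 fold changes of cadmium over control were 0.19 for Celf5 (-0.84 to 1.22), 0.01 for Celf3 (-1.47 to 1.48) and -0.08 for Celf4 (-1.45 to 1.29), each at an adjusted p of 1.00 by edgeR. In sperm, where 0.0678% of 20635 genes were called, they were 0.51 for Celf5 (-1.64 to 2.65) and -0.30 for Celf3 (-3.46 to 2.86), again at an adjusted p of 1.00 by edgeR. These intervals leave room for changes of over 2-fold either way in sperm, and in testes either way for Celf3 and Celf4 and upward for Celf5. Celf4 did not pass the filter in sperm and was not tested there. The cadmium response markers Mt1, Mt2 and Hmox1 were at 0 in every sperm library. They summed to 2.78 and 4.12 FPKM in control testes and to 1.65 and 2.19 FPKM in cadmium testes. The signs of the Celf3 values turned under other settings. The difference between the cadmium effect in sperm and that in testes was 0.24 for Celf5 (-1.99 to 2.46), -0.39 for Celf3 (-3.44 to 2.66) and 1.69 for Celf4 (-1.85 to 5.22), in a fit that called 0.0396% of 32810 genes and none of these.

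**Figure D5:**
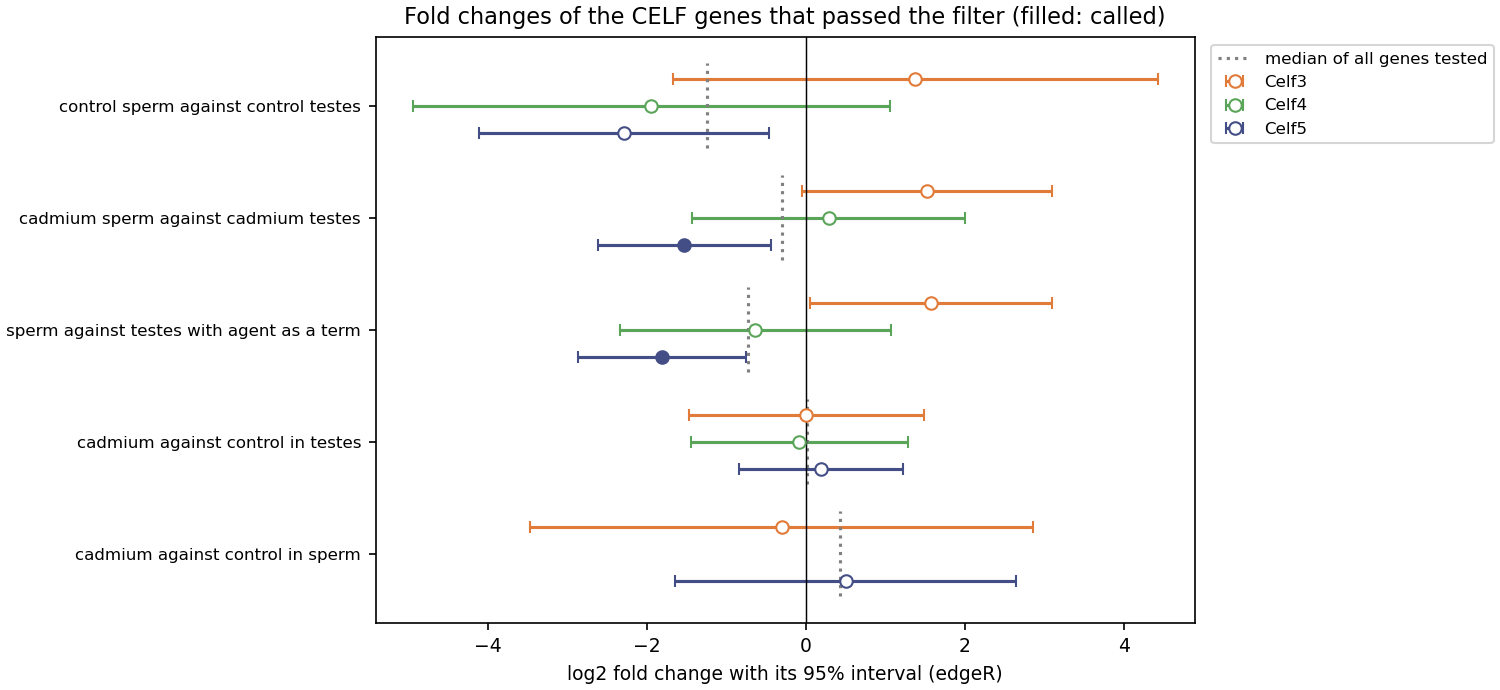
Log2 fold changes (x axis) of Celf3, Celf4 and Celf5 with 95% intervals in 5 comparisons (y axis), filled where called, with the median of all genes tested as a dotted line. Celf5 lies below 0 in the sperm against testes comparisons (-2.28, -1.53 and -1.81), and all intervals of the cadmium comparisons include 0.

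Of 26 other splicing regulators, some tissue-restricted and some broadly active, which include the muscleblind antagonists of CELF proteins, 21 were listed and 7 were tested in control sperm against control testes. None was called higher there and 1 lower, beside 22% of all genes called, and their median log2 fold change was -1.86, beside -1.24 over all genes. The gene called lower was Tial1, a relative of TIA1 that acts in splicing and stress granules, which was at 0 in all 6 sperm libraries and between 0.91 and 1.98 FPKM in testes. It passed the filter through control testes alone, at 1.14 and 1.98 FPKM, so it could not have been called higher. In cadmium sperm against cadmium testes, 1 of 4 tested was called higher and 1 lower, beside 31.7% of all genes, with a median of -0.86 beside -0.29. Both are named here after their values had been seen. Nova2, a neuronal splicing regulator, was at 18.3 and 9.31 FPKM in cadmium sperm and 3.40 and 3.13 FPKM in cadmium testes (log2 fold change 2.27, SE 0.56, adjusted p = 3.91e-04 by edgeR). Esrp1, an epithelial splicing regulator, was at 0 and 0.40 FPKM in cadmium sperm and 2.86 and 4.98 FPKM in cadmium testes (log2 fold change -3.94, SE 1.00, adjusted p = 6.15e-04 by edgeR). Esrp1 passed the filter there through cadmium testes alone. In control sperm 1 to 4 Nova2 was at 11.3, 8.90, 5.20 and 8.22 FPKM, above 3.83 and 2.52 FPKM in control testes, with an adjusted p of 0.409 by edgeR. With the agent as a term, where 32.7% of all genes were called, 2 of 8 were called higher (Nova2 and Esrp2) and 2 lower (Tial1 and Esrp1), with a median of -1.16 beside -0.73 over all genes. In that fit Tial1 passed the filter through testes alone and Esrp2 through sperm alone. Mbnl1 was at most 1.32 FPKM in any library, Mbnl2 at most 0.08 FPKM and Mbnl3 at most 0.04 FPKM.

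Of 13 mRNAs known as CELF targets, 11 were listed, 2 were tested in control sperm against control testes and 4 in cadmium sperm against cadmium testes, and none was called in either. Their median log2 fold changes were 1.12 over the 2 and 1.14 over the 4, beside medians of -1.24 and -0.29 over all genes. The 2 were Mapt and Junb, and Junb passed the filter through control sperm 2 and 4 alone, at 1.04 and 4.35 FPKM. Such medians of a few genes do not describe CELF targets as a class. With the agent as a term 1 of 5 was called, with a median of 1.04 beside -0.73. This was Actn1, which encodes an actin-crosslinking alpha-actinin and was higher in sperm (log2 fold change 2.61, adjusted p = 0.0278 by edgeR). It reached 1 FPKM in sperm libraries alone, so the filter left it no way to be called lower. For the most abundant of the target mRNAs, the sperm and testes values overlapped. Most of the FPKM of these mRNAs lay in Mapt, which encodes the microtubule protein tau and was at 65.6, 38.7, 21.0 and 35.4 FPKM in control sperm 1 to 4, 79.9 and 10.5 FPKM in cadmium sperm, and 12.4 to 22.6 FPKM in the 4 testes libraries. Of 7 genes for deadenylation and for kinases that act with or on CELF1, 1 was tested in each of these comparisons and none was called, with a log2 fold change of -0.52 in control and -0.76 in cadmium samples, and none of 2 was called with the agent as a term. In the cadmium against control comparisons no gene of the 3 lists was called.

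Markers of other cell types were summed in each library, and the sums of most types overlapped between sperm and testes. The 8 neuron markers summed to 0 to 1.96 FPKM in control sperm, 1.77 to 3.98 FPKM in cadmium sperm and 0.35 to 1.96 FPKM in the 4 testes libraries, and Snap25 and Stmn2 were listed in no library. The 7 epithelial markers summed to 4.17 to 13.0 FPKM in sperm and 6.28 to 11.9 FPKM in testes, and in control samples 1 of 3 tested was called, beside 22% of all genes, with a median log2 fold change of -0.70 beside -1.24. This was the keratin gene Krt18, which was higher in sperm (log2 fold change 3.52, adjusted p = 0.0487 by edgeR), while its partner Krt8 stood at -1.42 (adjusted p = 0.553 by edgeR). Krt18 passed the filter through control sperm 2 and 4 alone, at 1.38 and 5.77 FPKM, beside 0.26 and 0 FPKM in control testes. Leydig cell markers summed to 0 to 27.5 FPKM in sperm and 15.6 to 22.2 FPKM in testes, and Insl3 among them was at 0 in all 6 sperm libraries. Sertoli cell markers summed to 0 to 6.78 FPKM in sperm and 1.99 to 3.32 FPKM in testes, and muscle and peritubular markers to 0.65 to 33.6 and 11.2 to 15.9 FPKM. Leukocyte markers summed to 0 to 4.85 FPKM in sperm and 2.54 to 3.84 FPKM in testes, with Cd3e, Itgam and Adgre1 listed nowhere, and endothelial markers to at most 0.16 FPKM. Spermatogonium markers summed to 0 to 0.31 FPKM in sperm and 0.98 to 1.68 FPKM in testes. Spermatocyte markers summed to 2.15 to 6.12 FPKM in testes and were at 0 in 5 sperm libraries, while cadmium sperm 1 held 3.18 FPKM, all of it Sycp3. In control samples 1 of 1 leukocyte, 1 of 2 Leydig and 1 of 1 spermatocyte markers tested were called lower in sperm, beside 22% of all genes. Their median log2 fold changes were -4.79, -2.71 and -5.83, beside -1.24. The leukocyte and spermatocyte genes tested, Lyz2 and Sycp1, passed the filter through control testes alone, so neither could have been called higher. Spermatid and sperm markers summed to 234 to 465 FPKM in sperm and 467 to 572 FPKM in testes, and 3 of 7 tested (Prm1, Tnp1 and Odf1) were called lower in control sperm, beside 22% of all genes. Odf1 passed the filter through control testes alone, at 2.12 and 2.38 FPKM. Prm2, the most abundant of these markers in sperm, was not called (log2 fold change 0.34, adjusted p = 0.747 by edgeR). Depth also moved with tissue. The part of cell make-up and of depth in the Celf5 and Celf3 differences was not tested.

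The genes most like each CELF gene were sought among 6680 NM_ genes that reached 1 FPKM in a pair of samples or more, by Pearson's r of log2(FPKM + 1) over the 10 samples, which share library depth and tissue. For Celf5 they were Tmub1 (r = 0.981), the transition protein gene Tnp2 (r = 0.975) and the translation initiation factor gene Eif5b (r = 0.970). For Celf4 they were Tarbp2 (r = 0.982), Lrrc51 (r = 0.975) and 1700037C18Rik (r = 0.971). For Celf3 they were Zfpm1 (r = 0.947), the poly(C)-binding protein gene Pcbp1 (r = 0.946) and the keratin gene Krt86 (r = 0.942), each of which was at 0 in control sperm 1 and 3. For Celf1 they were Begain (r = 0.960), Nup50 (r = 0.934) and Dnaaf5 (r = 0.929). Between 14 and 125 genes passed r = 0.9 with each of the 4, so that these are a few of many, and all 12 named were listed at 0 in control sperm 3.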

How the data were processed

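Strand-specific RNA-seq of 10 mouse sperm and testes samples was read from 1 table per sample, and groups were taken from the sample labels. The authors deposited expected counts, which are unnormalized estimates per transcript, and FPKM, in which the authors divided the counts by transcript length and by library total. Per the study's methods reads were cleaned and aligned with SOAPaligner/SOAP2, while the submitters' processing notes name HISAT and mm10; the tool behind the expected counts is not given in the sources used here. A transcript that a table did not list was taken as 0. Values were summed by gene symbol. No row of another class carried a CELF symbol, and 10 of the 11 CELF transcripts were found in the RefSeq table of GRCm38.p6.

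Expected counts were rounded to whole numbers for edgeR 4.0.16 (R 4.3.3, TMM factors, quasi-likelihood test), over genes or transcripts of all classes that reached 1 FPKM in 2 or more of the samples compared. Control sperm 1 was left out of the fits. A gene was called when it changed over 2-fold with a p under 0.05 after Benjamini-Hochberg adjustment, and the SE is the log2 fold change divided by the square root of F, worked back from the test. The fit was run on simulated counts, with changes planted only in genes of higher counts than most CELF genes had. That run does not show how the fit does at low counts. Alternatives were RLE size factors, NM_ features alone, DESeq2 1.42.0, limma 3.58.1 on log2(FPKM + 1) and log2(FPKM + 0.1), no filter, at least 10 counts in 2 samples, all 4 control sperm pools, the replicate number as a block, and each library left out. Summaries used Python 3.11.15, pandas 2.3.3 and scipy 1.17.1. Within each group, pairs of replicates differed by more than counting noise (chi-square of 13.6 to 26.9 per degree of freedom). The CELF genes, the gene lists and the rule for named genes (all CELF genes, the 2 highest and 2 lowest called genes of each list in control sperm against control testes, every called list gene of the cadmium comparisons, and the 3 genes most like each CELF gene listed in at least 5 samples) were chosen with earlier results of these data known.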

Additional observations from a re-analysis of the deposited data

Results flagged for a closer look

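Among the 4 control sperm pools, control sperm 2 was the only one with Celf1 listed, at 0.81 FPKM, and the only one with Celf4 listed, at 0.84 FPKM, and Dixon's test singled out both values. Its ratio is 1 whenever the other three values are 0, however small the fourth is, so that the usual rate of about 1 in 20 groups picked by chance does not apply here and the test carries no information. The values are 4 and 3.41 counts in the deepest control sperm library, and the 95% Poisson intervals of the other three libraries reach 7.26 to 10.1 CPM (expected counts scaled to the library total), above the 3.78 CPM of Celf1 and 3.22 CPM of Celf4 in control sperm 2.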

How the results depend on the processing

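Depth was a limit, since 27 of 42 CELF values above 0 rested on fewer than 10 counts. The summed FPKM of the family kept its direction under every alternative run, with log2 ratios of -1.89 to -0.76 in control and -1.24 to -0.84 in cadmium samples, and so did the difference in the Celf3 share, at 24.5 to 50.9 percentage points (24.5 in cadmium samples, 28.1 with all 4 control sperm pools, 29.5 to 50.9 with each library left out).

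In control sperm against control testes 0 CELF genes were called, and 1 with RLE size factors (Celf5, adjusted p = 0.0472 by edgeR). The Celf5 log2 fold change there ranged from -1.55 to -3.15 with each library left out. The log2 fold change of Celf3 was -0.072 by limma on log2(FPKM + 0.1). The 1 transcript called became 0 with either limma setting, without a filter, with at least 10 counts in 2 samples and with the replicate block, and was 0 to 1 with each library left out. In cadmium sperm against cadmium testes the 1 gene called became 0 with either limma setting (adjusted p = 0.0558 and 0.0659) and 0 with any library left out. With at least 10 counts in 2 samples 1 gene was called, but it was Celf3 (adjusted p = 0.0298 by edgeR) and not Celf5 (0.0634). Celf4 turned to -0.025 by limma on log2(FPKM + 0.1), and ranged from -0.62 to 0.90 with each library left out. With the agent as a term the 1 gene called became 0 by limma on log2(FPKM + 0.1), where Celf5 had an adjusted p of 0.119, and 1 to 2 with each library left out. The causes were not tested.

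No CELF gene was called in a cadmium comparison under any alternative, but signs turned. In testes the Celf3 log2 fold change of 0.01 became -0.0065 with RLE size factors, -0.032 with NM_ features alone, -0.0017 by DESeq2, -0.044 and -0.076 by limma with pseudocounts of 1 and 0.1, and -0.012 with at least 10 counts in 2 samples. With each library left out it ranged from -0.18 to 0.27, that of Celf4 from -0.21 to 0.090 and that of Celf5 from -0.14 to 0.61. In sperm Celf3 became 0.26 and 1.15 by limma with pseudocounts of 1 and 0.1, 0.027 with all 4 control sperm pools, and ranged from -0.91 to 0.044 with each library left out, and Celf5 ranged from -0.13 to 1.37. For the difference between tissues Celf3 became 0.15 with NM_ features alone and 0.30 and 1.23 by limma, and ranged from -0.85 to 0.44 with each library left out, and Celf5 ranged from -0.26 to 1.62.

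The replicate numbers of the labels do not tie samples of 1 number together, and same-numbered samples deviated together only between the 2 testes groups (r = 0.446, against -0.056 to 0.091 in the other pairs of groups). With the replicate number as a block, Celf5 stood at -1.10 in control samples (adjusted p = 0.879 by edgeR) and was called in cadmium samples (-1.49, adjusted p = 0.00823 by edgeR). With the agent as a term 2 CELF genes were called under the block, Celf5 and Celf3 (1.72, adjusted p = 0.00588 by edgeR). In sperm the cadmium values became 0.42 for Celf3 and -0.35 for Celf5 under the block, and the difference between tissues for Celf5 became -0.39.

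Over all genes, the number called ranged from 880 to 7128 around 5373 in control samples, 1613 to 7993 around 8169 in cadmium samples, 2820 to 11876 around 10741 with the agent as a term, 0 to 73 around 4 for cadmium in testes, 0 to 1160 around 14 for cadmium in sperm and 0 to 115 around 13 for the difference. The median log2 fold change of all genes was -1.24 with TMM or -1.25 with RLE factors in control samples, and -0.73 or -1.05 with the agent as a term.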
